A study of Homo sapiens with 16 samples.

Results

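FOXO1, FOXO3 and FOXO4 are forkhead transcription factors that growth factor signalling through PI3K and AKT keeps out of the nucleus. They are described here with genes that respond to this signalling or pass it on: the insulin receptor adaptors IRS1 and IRS2, the arrestin-fold proteins TXNIP and ARRDC4, the transcriptional cofactor CITED2 and the transcriptional repressor BCL6. The list holds 9 genes, taken by gene name from the 4 comparisons that the authors deposited. Of these, 8 were measured in all 4 tables, among 19344 genes present in all of them; IRS2 was not analysed here.

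The cells were U2OS, a human osteosarcoma line that keeps wild-type p53. Transfection was with siControl, a control siRNA, or with siRFX7, which targets the transcription factor RFX7, and each kind received either DMSO alone or Nutlin-3a at 10 µM for 24 h. Nutlin-3a occupies the p53 pocket of MDM2 and so raises p53. Each of the 4 groups had 4 poly(A) RNA-seq libraries, 16 in all, from a single line. The labels do not say whether these came from separate cultures, so errors and p-values cover the spread between libraries, which may be technical. The tables compare groups and hold no value of a single library, so each result below is a group value with the authors' standard error (SE) over 4 libraries against 4. The series addresses the transcriptome that depends on RFX7, with and without active p53.

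When insulin or growth factors bind their receptors, IRS adaptors recruit PI3K, AKT is activated, and AKT phosphorylates FOXO proteins, which 14-3-3 proteins then hold in the cytoplasm. With the pathway at rest, FOXO proteins enter the nucleus and switch on genes of cell cycle arrest, stress resistance and catabolism. IRS2, BCL6 and CITED2 are known among their targets. TXNIP binds thioredoxin and lowers glucose uptake, and TXNIP and its relative ARRDC4 are classic targets of the glucose-sensing factor MondoA with its partner MLX. Transcript levels do not report the phosphorylation or the location of a FOXO protein.

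The label checks are given once for the series. The signs of RFX7, CDKN1A and MDM2 were used to set the direction of the comparisons, so only the sizes of their changes serve as a check. The authors' deposited tables put RFX7 at a log2 fold change of -2.42 with its siRNA under DMSO and at -2.37 with it under Nutlin-3a. The p53 targets CDKN1A and MDM2 were higher with Nutlin-3a by between 2.76 and 3.24 on the log2 scale (the authors' deposited tables). For 1 of these p53 targets the Nutlin-3a response was called lower in siRFX7 than in siControl. By the normal test of that difference, 2 of the 3 check genes had an unadjusted p under 0.05, with a median of -0.13 over the 3. Of all genes, 0.937% were called and 6.32% had such a p. Any part of this in the responses of the 8 genes was not tested. Of 7 osteoblast and mesenchymal markers 6 were measured, with base means (mean normalised counts over the libraries of a comparison) in the authors' deposited siControl table from 13.2 for COL1A2 to 84577 for VIM, and with RUNX2 at 432. The 4 epithelial markers ranged from 121 to 24067 there, the highest being KRT8, whereas the measured leukocyte and endothelial markers were at 17.8 or less in that authors' deposited table. With siRFX7 the epithelial markers CDH1 (0.85 under DMSO, 1.10 under Nutlin-3a) and EPCAM (0.54, 0.41) had higher log2 values, and KRT8 and KRT18 lay between 0.04 and 0.09, in the authors' deposited tables. Whether this has a part in the siRFX7 values of the 8 genes was not tested. The base means of a table added up to between 27946376 and 35311111 normalised counts.

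The 8 genes differed widely in level. Per kilobase of annotated exon, in the authors' deposited siControl table, CITED2 was the highest, at 1525 normalised counts per kb. IRS1 followed with 434 per kb, and FOXO3 (165), BCL6 (164), FOXO4 (142) and FOXO1 (81.5) lay closer together, against a median of 72.9 per kb over all genes of that authors' deposited table. TXNIP (46.3 per kb) and ARRDC4 (37.9 per kb) were the lowest of the 8 there. Their counts were small, and the authors' deposited tables gave them SEs from 0.12 to 0.18 on the log2 scale, above those of the other 6 genes.

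With Nutlin-3a in siControl cells, 6 of the 8 genes passed an adjusted p of 0.05, 5 higher and 1 lower, where 37.9% of all genes passed (18.3% higher, 19.6% lower). TXNIP rose 2.02-fold and ARRDC4 2.15-fold, while the other 4 changed by 20.6% or less. In siRFX7 cells 4 of 8 passed, 2 higher and 2 lower, against 39.1% of all genes (18.7% higher, 20.3% lower). With siRFX7 under DMSO 5 of 8 passed, 3 higher and 2 lower, against 37.4% of all genes (19.9% higher, 17.5% lower). Under Nutlin-3a 2 of 8 passed, both lower, against 32.6% of all genes (17.2% higher, 15.4% lower). These shares lie on both sides of the background, and with 8 genes nothing is read from them. When each statistic was divided by the robust SD of all statistics of its table, TXNIP and ARRDC4 kept their calls with Nutlin-3a in siControl, IRS1 with Nutlin-3a in siRFX7 and TXNIP with siRFX7 under Nutlin-3a, and the remaining calls in these tables were lost.

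**Figure D1:**
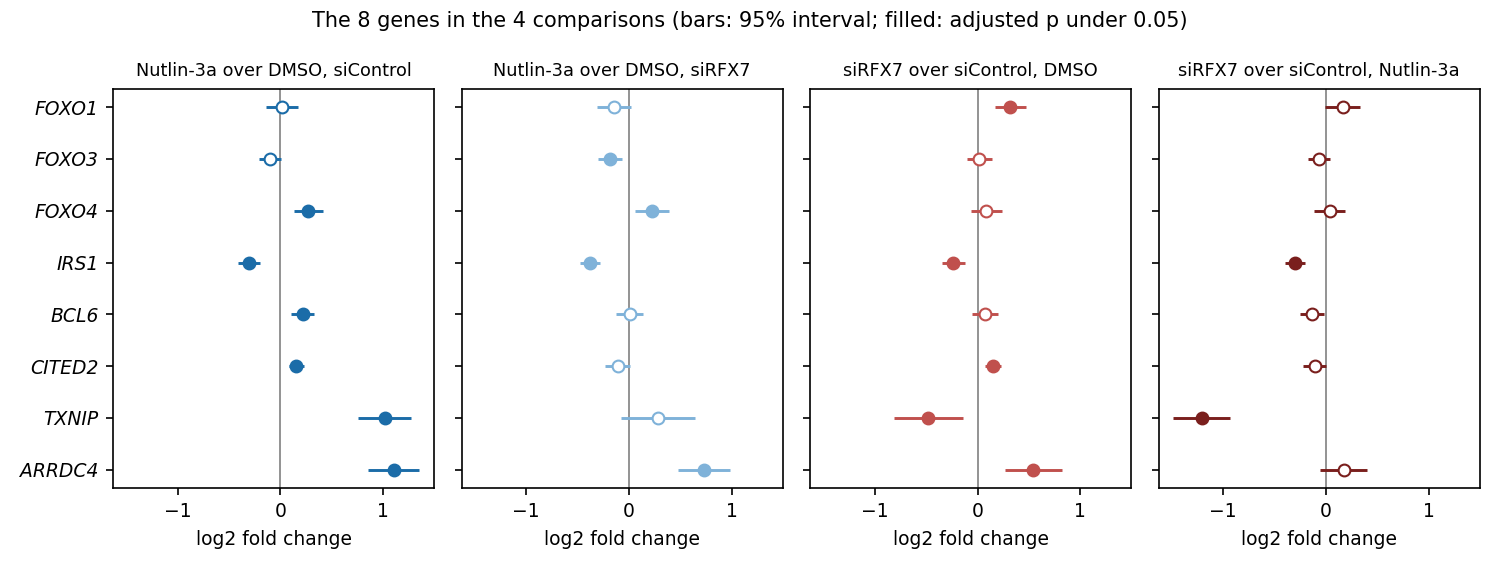
Log2 fold change of each of the 8 genes (vertical axis) in the authors' 4 deposited comparisons (panels), with 95% intervals from the deposited SEs as bars and filled points for an adjusted p under 0.05. TXNIP and ARRDC4 stand to the right in the siControl Nutlin-3a panel, at 1.01 and 1.10, and TXNIP alone lies far to the left with siRFX7 under Nutlin-3a, at -1.21.

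IRS1, the adaptor that links the insulin and IGF1 receptors to PI3K, was lower after each change, and its lowest level was in cells with both. It lies on chromosome 2 (226731317 to 226799759, minus strand, GENCODE 29 on GRCh38). The authors' deposited siControl table corresponds to group means of 4774 normalised counts under DMSO and 3860 under Nutlin-3a, a fall by 0.31 ± 0.05 (SE; adjusted p 5.77e-08). In siRFX7 cells the authors' deposited table corresponds to 3085 and 2374, a fall by 0.38 ± 0.05 (SE; adjusted p 2.56e-12). Each table was normalised on its own, so means are compared within a table only. The siRNA lowered IRS1 under both treatments: the authors' deposited tables gave -0.23 ± 0.06 under DMSO (adjusted p 0.000127) and -0.31 ± 0.05 under Nutlin-3a (adjusted p 6.31e-09). With the siControl DMSO level set to 100%, chained log2 fold changes put IRS1 at 80.9% with Nutlin-3a, 85.0% with siRFX7 and 65.4% with both. The Nutlin-3a response did not differ detectably between siRFX7 and siControl (difference -0.07, 95% interval -0.22 to 0.07).

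**Figure D2:**
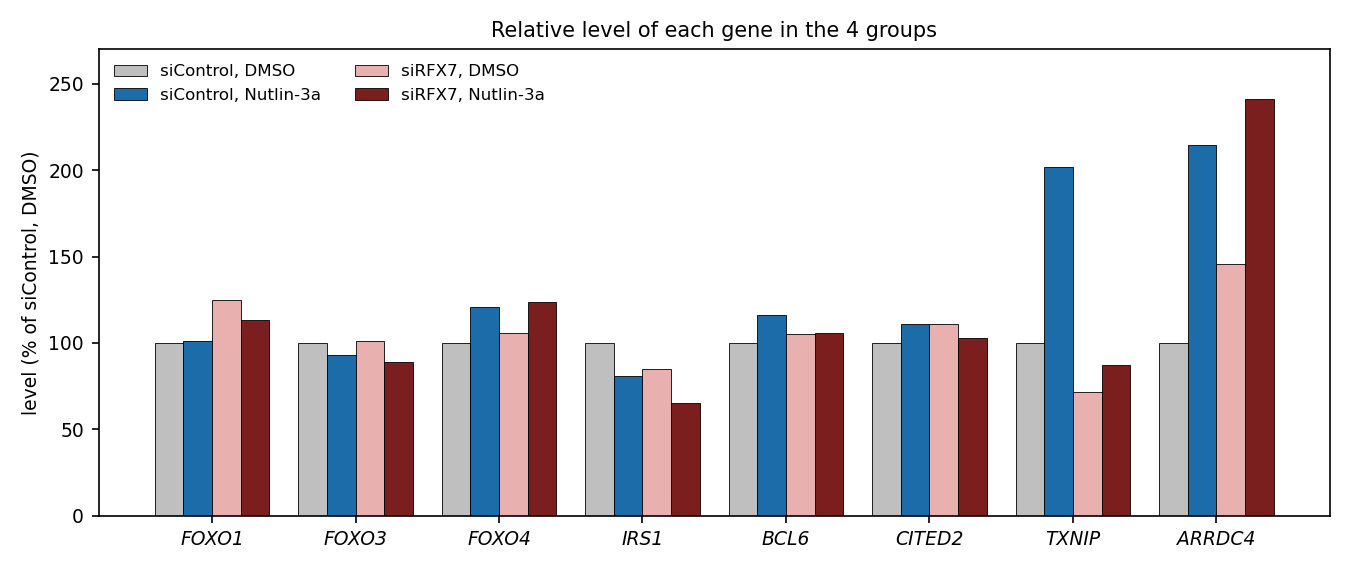
Level of each gene in the 4 groups as a percentage of its own siControl DMSO level (bars, from chained deposited log2 fold changes; no error bars, since the tables give none for the group with both changes). IRS1 steps down to 65.4%, TXNIP reaches 202% in siControl with Nutlin-3a but 87.2% in siRFX7 with Nutlin-3a, and ARRDC4 reaches 241% there.

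Of the FOXO factors, FOXO4 rose with Nutlin-3a and FOXO1 rose with siRFX7 under DMSO, FOXO4 by 20.6% in siControl and FOXO1 by 24.8%. FOXO4 (chromosome X, 71096197 to 71103535) went from 445 to 537 normalised counts in siControl according to the authors' deposited table, 0.27 ± 0.07 (SE; adjusted p 0.000659). In siRFX7 cells its rise was 0.22 ± 0.08 (SE; adjusted p 0.0236) by the authors' deposited table. For siRFX7, the authors' deposited tables held FOXO4 at 0.08 ± 0.08 under DMSO and 0.03 ± 0.08 under Nutlin-3a, neither of which passed. FOXO1 (chromosome 13, 40469953 to 40666597, minus strand) showed the reverse arrangement. The authors' deposited siRFX7 table under DMSO corresponds to 454 and 566 normalised counts, a rise by 0.32 ± 0.08 (SE; adjusted p 0.000191). For Nutlin-3a the authors' deposited tables gave it 0.018 ± 0.08 in siControl and -0.14 ± 0.08 in siRFX7, and for siRFX7 under Nutlin-3a 0.16 ± 0.09, none of which passed. FOXO1 shares exonic sequence on its own strand with LINC00598, whose base mean was 4.35 in the authors' deposited siControl table.

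FOXO3 (chromosome 6, 108559835 to 108684774) passed in a single comparison. It fell by 0.19 ± 0.06 (SE; adjusted p 0.00502) with Nutlin-3a in siRFX7 cells in the authors' deposited table, and did not pass in siControl, at -0.10 ± 0.06. For siRFX7, the authors' deposited tables held it at 0.016 ± 0.06 under DMSO and -0.07 ± 0.05 under Nutlin-3a, and neither passed. The pseudogene FOXO3B carries a near-identical copy of FOXO3, with a base mean of 142 against 1273 for FOXO3 in the authors' deposited siControl table, and how reads shared between them were assigned is not stated, so FOXO3 is uncertain to that extent. FOXO6, the remaining family member, fell by 0.45 ± 0.09 (SE) in siControl and 0.45 ± 0.11 in siRFX7 with Nutlin-3a, the authors' deposited tables showed. Under Nutlin-3a, 0 of these 4 factors passed for siRFX7 in the authors' DESeq2 test, and 0 had an unadjusted p under 0.05, where 32.6% of all genes passed, and nothing is read from 4 genes.

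BCL6 and CITED2, both known FOXO targets, rose with Nutlin-3a in siControl cells, each by less than 0.25 on the log2 scale, and did not pass in siRFX7 cells. BCL6 (chromosome 3, 187721377 to 187745727, minus strand), a zinc finger repressor, went from 899 to 1044 normalised counts in siControl according to the authors' deposited table, 0.22 ± 0.06 (SE; adjusted p 0.000821). In siRFX7 cells the authors' deposited table gave 0.0063 ± 0.07, with both group means near 720, at 719 and 722. For siRFX7, the authors' deposited tables held BCL6 at 0.07 ± 0.06 under DMSO and -0.14 ± 0.06 under Nutlin-3a, and neither passed, the latter with an adjusted p of 0.057. The responses differed by -0.21 ± 0.09, which did not pass over all genes (adjusted p 0.501; 95% interval -0.38 to -0.04). BCL6 shares exonic sequence on the opposite strand with a pair of annotated antisense genes, and the strand setting of the counting is not stated.

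CITED2 (chromosome 6, 139371807 to 139374620, minus strand), which competes with HIF1A for the coactivators CBP and p300, was the only 1 of the 8 whose Nutlin-3a response differed with siRFX7 by the test over all genes. Its group means were 3664 and 4070 normalised counts without and with Nutlin-3a in siControl according to the authors' deposited table, a rise by 0.15 ± 0.04 (SE; adjusted p 0.000203). In siRFX7 cells they were 3092 and 2862 according to the authors' deposited table, -0.11 ± 0.06, which did not pass (adjusted p 0.143). The difference of these responses was -0.26 ± 0.07 (adjusted p 0.0287, Benjamini-Hochberg over 21339 genes; 0.937% of all genes passed this test, 0.764% lower and 0.173% higher). The siRNA raised CITED2 by 0.15 ± 0.04 under DMSO (adjusted p 0.00106) and left it at -0.11 ± 0.06 under Nutlin-3a (adjusted p 0.138), the authors' deposited tables showed. Set to 100% in siControl with DMSO, CITED2 was at 111% with Nutlin-3a, 111% with siRFX7 and 103% with both.

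TXNIP and ARRDC4 both rose with Nutlin-3a in siControl cells and differed in direction with siRFX7 under DMSO. ARRDC4 (chromosome 15, 97960698 to 97973838) rose from 98.0 to 210 normalised counts in siControl according to the authors' deposited table, by 1.10 ± 0.13 (SE; adjusted p 7.69e-17). TXNIP (chromosome 1, 145992435 to 145996600, minus strand) rose from 111 to 224 there, by 1.01 ± 0.13 (SE; adjusted p 2.09e-13) in the same authors' deposited table. Among all genes of that authors' deposited table, 4.18% had a higher log2 fold change than ARRDC4 and 4.97% a higher one than TXNIP.

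In siRFX7 cells ARRDC4 still rose with Nutlin-3a, from 109 to 180 normalised counts in the authors' deposited table (0.73 ± 0.13 SE; adjusted p 1.91e-07). TXNIP went from 60.7 to 73.9 in that authors' deposited table, and its 0.28 ± 0.18 (SE; 95% interval -0.07 to 0.64) did not pass (adjusted p 0.229). Between these responses, TXNIP had the largest difference of the 8 genes, -0.73 ± 0.22, with an unadjusted p of 0.00117 and an adjusted p of 0.0979 over all genes, so it did not pass. That adjusted p ranged from 0.0524 to 0.0979 over the alternatives tried. The 95% interval of the difference was -1.17 to -0.29 for TXNIP and -0.73 to -0.01 for ARRDC4 (difference -0.37 ± 0.18, adjusted p 0.744).

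The knockdown comparisons separate the pair further. Under Nutlin-3a, TXNIP fell from 190 normalised counts in siControl to 82.2 in siRFX7 according to the authors' deposited table, by 1.21 ± 0.14 (SE; adjusted p 4.44e-16), and 0.649% of all genes had a lower log2 fold change. ARRDC4 went from 178 to 200.5 in the same authors' deposited table, 0.17 ± 0.12 (SE; adjusted p 0.288). The 95% intervals, -1.49 to -0.93 for TXNIP and -0.06 to 0.40 for ARRDC4, do not overlap. Under DMSO, TXNIP fell by 0.48 ± 0.17 (SE; adjusted p 0.016) and ARRDC4 rose by 0.54 ± 0.14 (SE; adjusted p 0.000689) in the authors' deposited table. In the order of levels, TXNIP ran from 71.6% in siRFX7 with DMSO and 87.2% in siRFX7 with Nutlin-3a, which did not differ beyond their error, to 100% and then 202% in siControl. ARRDC4 ran from 100% in siControl with DMSO to 145% in siRFX7 with DMSO, 215% in siControl with Nutlin-3a and 241% with both, and the last pair did not differ beyond its error. The siControl Nutlin-3a libraries serve both as the treated group of the siControl response and as the reference of the knockdown comparison under Nutlin-3a. In bulk RNA, fewer cells with a transcript and less of it per cell cannot be told apart.

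**Figure D3:**
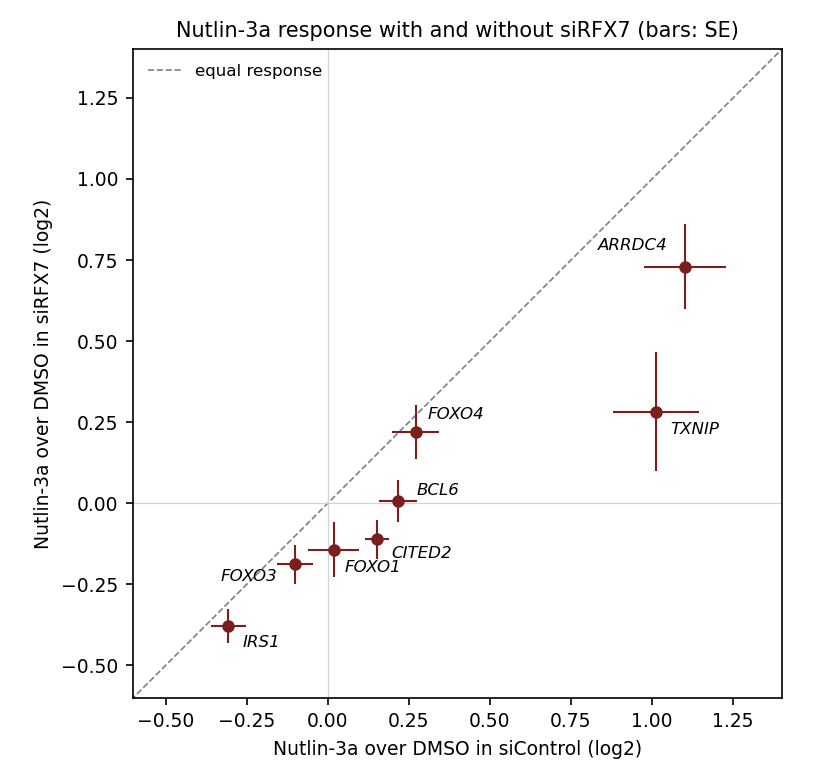
Nutlin-3a response in siControl (horizontal) against that in siRFX7 (vertical) for the 8 genes, as deposited log2 fold changes with SE bars; the dashed line marks equal responses. All 8 points lie below the line, ARRDC4 at 1.10 and 0.73 and TXNIP farthest from it at 1.01 and 0.28.

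Promoter sequence was looked at for this pair because both rose with Nutlin-3a and went apart with siRFX7. All 8 genes had an entry in the RefSeq promoter table (GRCh38.p14), which gives windows from 250 bases before to 50 after each annotated start. On both strands 3 motifs were searched: GTAAACA for FOXO factors, a carbohydrate response element, and GTTGCC, the core of the sequence that RFX factors bind. The carbohydrate response element is bound by MondoA with MLX. It was searched in a strict form only, 2 boxes of CACGNG with 5 bases between them. The matches in the TXNIP windows are shown 5′ to 3′ on the gene's own strand, with the motif in capitals. The FOXO and carbohydrate matches (chr1:145996686-145996714 and chr1:145996645-145996673, both on the minus strand) begin 124 and 88 bases before the upstream start. The RFX match (chr1:145995770-145995799, minus strand) begins 43 bases before the downstream start. It thus lies inside the annotated TXNIP gene (145992435 to 145996600) and not before the upstream start.
TXNIP FOXO motif: tcgggctcctgGTAAACAaggaccgggca
TXNIP carbohydrate response element: gatgtgCACGAGGGCAGCACGAGcctccg
TXNIP RFX motif core: atcctgaggggcGTTGCCtcgggtagttaa

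The matches in the other windows were those of FOXO4 (chrX:71095863-71095891, plus strand, 23 bases after the start) and CITED2 (chr6:139374585-139374612, minus strand, 240 bases before a start, with the core on the opposite strand). They are shown because FOXO4 was the FOXO factor that rose with Nutlin-3a and CITED2 the gene with the called difference.
FOXO4 FOXO motif: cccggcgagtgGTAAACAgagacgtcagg
CITED2 RFX motif core: gagctgtgagGGCAACggaggggaaata

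None of the matches overlapped another motif, and the ARRDC4 window held none of the 3 in the forms searched. Looser forms were not searched, so an element of that kind in ARRDC4 could have been missed. Of 35116 windows in the table, 3.42% held the FOXO motif, 0.057% the carbohydrate response element and 12.2% the RFX core. Counted by gene, these shares were 4.19%, 0.073% and 14.6% of 27305 genes. Genes differed in their number of windows, with 2 for TXNIP and 1 for ARRDC4. A match describes these letters and not binding. Separately, the 3′ UTRs of the 8 genes in GENCODE 29 were searched for GTATCTA, a heptamer that an earlier scan of these same log2 fold changes had picked out. None of the 8 carried it, IRS1 and TXNIP included, against 8.48% of 14813 protein-coding genes.

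By the difference of the Nutlin-3a responses, siRFX7 minus siControl, all 8 genes were below 0, as were 50.2% of all genes. Their median was -0.19 against -0.00055 over all genes, and the middle range of all genes ran from -0.11 to 0.10. CITED2 passed the test over all genes, and 4 of 8 (TXNIP, CITED2, BCL6 and ARRDC4) had an unadjusted p under 0.05, as had 6.32% of all genes. The 8 values come from the same libraries and are not replicates. The 8 genes were also chosen with earlier results of these data known, so the shares describe them only. FOXO1 (95% interval -0.39 to 0.07), FOXO3 (-0.25 to 0.07) and FOXO4 (-0.27 to 0.17) did not differ detectably in response.

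The genes most like CITED2 and TXNIP over the 4 deposited log2 fold changes were sought among the 12747 genes whose base mean reached 100 in all tables. By Euclidean distance they were TSPAN5 (0.026), MAP1LC3B2 (0.040) and AC060780.1 (0.043) for CITED2. For TXNIP they were PDCD4 (0.381), KLHL24 (0.432) and CCNG2 (0.441). PDCD4, for instance, was at 0.99 and 0.39 with Nutlin-3a in siControl and siRFX7, and at -0.80 and -1.40 with siRFX7 under DMSO and Nutlin-3a, the authors' deposited tables showed. These log2 fold changes share groups with each other.

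Among 20 genes of the cascade from the insulin receptor to AKT, 19 were measured, and their median ranged from -0.03 to 0.02 over the 4 comparisons, near that of all genes (-0.0053 to 0.010). With Nutlin-3a in siControl, 3 rose and 3 fell in the authors' deposited table, and in siRFX7 4 rose and 5 fell, against 18.3% of all genes higher and 19.6% lower in siControl and 18.7% and 20.3% in siRFX7. PIK3CD, a catalytic subunit of PI3K, rose by 0.47 ± 0.04 (SE) and 0.53 ± 0.05, the authors' deposited tables showed. With siRFX7, 7 rose and 3 fell under DMSO, and 7 rose and 5 fell under Nutlin-3a, the authors' deposited tables showed. Of all genes, 19.9% rose and 17.5% fell with siRFX7 under DMSO, and 17.2% rose and 15.4% fell under Nutlin-3a. SGK1, a kinase that also phosphorylates FOXO3, rose by 0.53 ± 0.06 (SE) and 0.40 ± 0.06, the authors' deposited tables showed. PDPK1, which activates AKT, rose by 0.40 ± 0.04 (SE) and 0.41 ± 0.05, the authors' deposited tables showed.

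The response to Nutlin-3a differed for 2 of these 19 genes, both lower, against 0.937% of all genes. PIK3R3, a regulatory subunit of PI3K, rose by 0.32 ± 0.05 (SE) in siControl and fell by 0.60 ± 0.08 in siRFX7 (the authors' deposited tables), and these responses differed by -0.92 ± 0.09 (adjusted p 2.05e-19). With siRFX7 it was lower by a log2 fold change of -0.36 ± 0.06 under DMSO and -1.28 ± 0.07 under Nutlin-3a, the authors' deposited tables showed. IGF1R, the receptor whose signal IRS1 carries, rose by 0.60 ± 0.04 (SE) and 0.32 ± 0.05 (the authors' deposited tables), and these responses differed by -0.29 ± 0.07 (adjusted p 0.00375).

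The median of the 16 regulators was -0.22 with Nutlin-3a in siControl and -0.26 in siRFX7. Of these 16 genes for proteins that hold, export, modify or degrade FOXO factors, 13 fell and 1 rose with Nutlin-3a in siControl, and 12 fell and 1 rose in siRFX7, the authors' deposited tables showed. Of all genes, 19.6% fell and 18.3% rose in siControl, and 20.3% fell and 18.7% rose in siRFX7. These shares include genes with few counts, whereas the base means of the 16 ran from 1412 for SIRT1 to 28606 for YWHAZ in the authors' deposited siControl table. Calls in this list and the others were not put through the division by the robust SD. SKP2, a ubiquitin ligase subunit that targets FOXO1, fell by 0.82 ± 0.05 (SE) and 0.62 ± 0.06, the authors' deposited tables showed. The 14-3-3 gene YWHAH fell by 0.53 ± 0.04 (SE) and the exportin XPO1 by 0.50 ± 0.04 in the authors' deposited siControl table, while SFN, a 14-3-3 gene and p53 target, rose by 0.61 ± 0.05 there. With siRFX7 the list was mixed, 5 higher and 6 lower under DMSO (19.9% and 17.5% of all genes) and 7 higher and 3 lower under Nutlin-3a (17.2% and 15.4% of all genes), the authors' deposited tables showed. YWHAB, another 14-3-3 gene, fell by 0.46 ± 0.03 (SE) and 0.45 ± 0.03 with it, the authors' deposited tables showed. Of its relatives, YWHAE rose by 0.39 ± 0.03 (SE) and 0.34 ± 0.04, and YWHAG by 0.20 ± 0.04 and 0.19 ± 0.03 (the authors' deposited tables). YWHAQ and YWHAZ were lower under DMSO, each at -0.11 ± 0.04 (SE), and did not pass under Nutlin-3a (the authors' deposited tables). YWHAH (0.13 ± 0.04 SE) and SFN (0.11 ± 0.04) passed under Nutlin-3a only, both higher, in the authors' deposited tables. For 0 of 16 did the response differ by the normal test, where 0.937% of all genes passed. At an unadjusted p under 0.05 it was 1 of 16, against 6.32% of all genes. With shares this low, these counts do not show that the responses were alike.

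Of 20 further textbook FOXO targets 18 were measured, with a median of 0.31 for Nutlin-3a in siControl and 0.27 in siRFX7. With Nutlin-3a 12 rose and 2 fell in siControl, and 11 rose and 3 fell in siRFX7, the authors' deposited tables showed, against 18.3% of all genes higher and 19.6% lower in siControl and 18.7% and 20.3% in siRFX7. The list overlaps with p53 targets such as GADD45A (0.75 ± 0.05 SE in the authors' deposited siControl table). The falls in siControl were those of CDKN1B and BCL2L11, which code for p27 and the apoptosis promoter BIM, each by 0.45 in the authors' deposited table. With siRFX7, 7 rose and 4 fell under DMSO (19.9% and 17.5% of all genes), and 5 rose and 6 fell under Nutlin-3a (17.2% and 15.4% of all genes), the authors' deposited tables showed.

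The response differed for 4 of these 18 genes, against 0.937% of all genes (0.764% lower, 0.173% higher). It was lower in siRFX7 for SESN3, an inhibitor of mTORC1 signalling (-1.63 ± 0.14), for the cyclin CCNG2 (-0.94 ± 0.12) and for the autophagy gene GABARAPL1 (-0.23 ± 0.06, adjusted p 0.0448), and higher for KLF2 (0.55 ± 0.11). The ubiquitin ligase gene FBXO32 rose by 1.06 ± 0.09 (SE) in siControl and 0.58 ± 0.11 in siRFX7, the authors' deposited tables showed, and its difference of -0.48 ± 0.14 did not pass (adjusted p 0.0739). The lists were assembled with earlier results of these data known, and the counts describe them only.

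**Figure D4:**
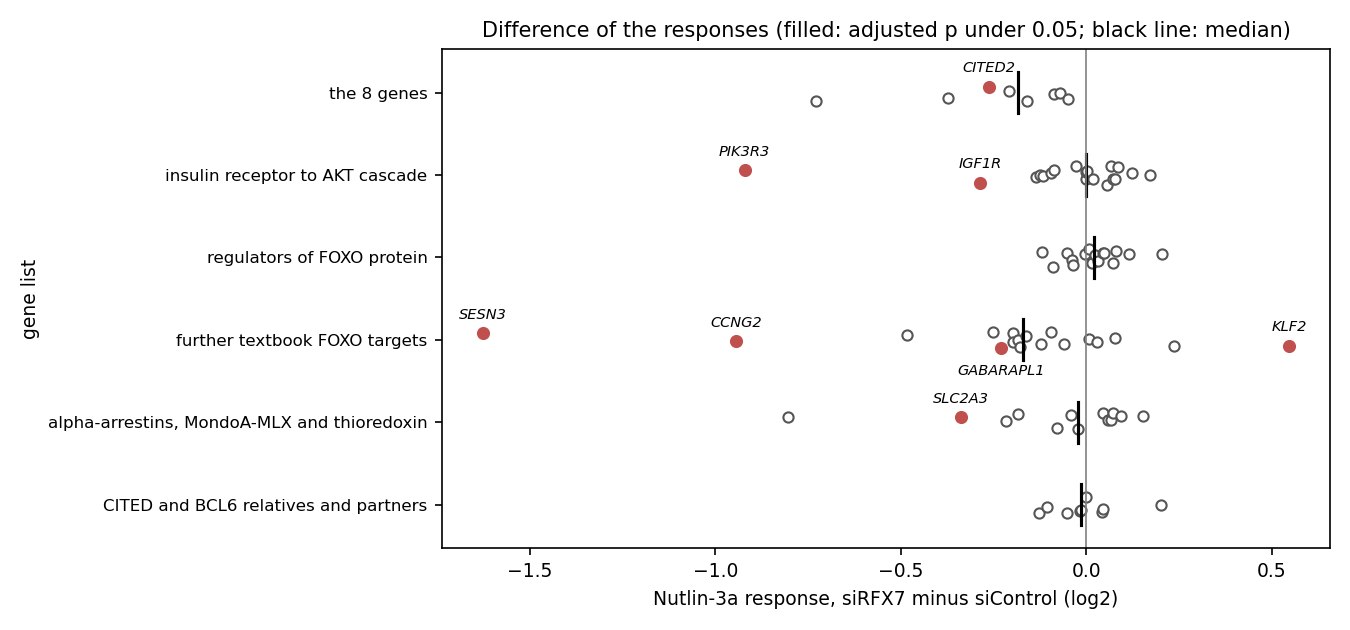
Difference of the Nutlin-3a responses, siRFX7 minus siControl on the log2 scale (horizontal), for the 8 genes and 5 related lists (rows, points spread vertically for legibility), with filled, named points for an adjusted p under 0.05 and a black line at each median. SESN3, CCNG2 and PIK3R3 lie farthest left among the called genes, and KLF2 is the called gene to the right of 0.

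For the relatives and regulators of TXNIP and ARRDC4, 13 of 14 genes were measured with Nutlin-3a, with a median of 0.09 in siControl and 0.15 in siRFX7. In siControl 6 rose and 2 fell and in siRFX7 5 rose and 3 fell, the authors' deposited tables showed, against 18.3% of all genes higher and 19.6% lower in siControl and 18.7% and 20.3% in siRFX7. ARRDC1, another alpha-arrestin, rose by 0.83 ± 0.12 (SE) and 0.90 ± 0.13, and ARRDC3 by 0.43 ± 0.08 and 0.21 ± 0.08, the authors' deposited tables showed. MLXIP, which codes for MondoA, fell by 0.15 ± 0.05 (SE) and 0.19 ± 0.04 with Nutlin-3a and was higher with siRFX7 by 0.40 ± 0.05 and 0.36 ± 0.04, the authors' deposited tables showed. Thioredoxin reductase TXNRD1 had a log2 fold change of -0.85 ± 0.04 (SE) with siRFX7 under DMSO and -0.79 ± 0.04 under Nutlin-3a, the authors' deposited tables showed.

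With siRFX7 the authors' deposited tables put the glucose transporter SLC2A1 higher, by 0.74 ± 0.04 (SE) under DMSO and by 0.56 ± 0.05 with Nutlin-3a. SLC2A3, a second glucose transporter, was higher by 0.66 ± 0.06 and 0.33 ± 0.05 there, and in the authors' deposited tables its Nutlin-3a response was 0.70 ± 0.05 in siControl and 0.36 ± 0.06 in siRFX7. Its difference of -0.34 ± 0.08 was the only one called in this list (adjusted p 0.00313; 1 of 13 genes, against 0.937% of all genes).

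Of 12 relatives and partners of CITED2 and BCL6, 10 were measured in siControl and 9 in siRFX7 with Nutlin-3a, with medians of -0.14 and -0.15. Of these, 4 and 3 fell and none rose, the authors' deposited tables showed, against 18.3% of all genes higher and 19.6% lower in siControl and 18.7% and 20.3% in siRFX7. CITED1 fell by 0.49 ± 0.14 (SE) and 0.60 ± 0.16, and BCOR, a corepressor that BCL6 recruits, by 0.44 ± 0.05 and 0.46 ± 0.05, the authors' deposited tables showed. With siRFX7 HIF1A, the hypoxia-inducible factor subunit, rose by 0.20 ± 0.04 (SE) under each treatment, the authors' deposited tables showed. For 0 of 9 did the response differ by the normal test, where 0.937% of all genes passed. At an unadjusted p under 0.05 it was 0 of 9, against 6.32% of all genes, and nothing is read from 9 genes.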

How the data were processed

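Poly(A) RNA-seq of 16 U2OS libraries in 4 groups was analysed from the authors' 4 deposited tables; groups came from the sample titles. Per the submitters' processing notes, reads were counted with featureCounts 1.6.5 on hg38 and compared with DESeq2 1.20.0; the aligner and annotation are not given in the sources used here. The base mean is a deposited signal, the mean normalised count of a comparison. The log2 fold changes, SEs, Wald score and p-values (Benjamini-Hochberg adjusted over each table) were used as the authors deposited them. Directions were settled from the values: the difference of responses and of knockdown effects differed by an SD of 0.0029 across genes, and RFX7, CDKN1A and MDM2 set the signs.

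Computed here with Python 3.11.15 and scipy 1.17.1 were the difference of the Nutlin-3a responses, normal 95% intervals, chained levels and group means. The difference had a two-sided normal test, with SEs combined as root sum of squares and Benjamini-Hochberg over 21339 genes. That test was tried on data simulated with normal errors of the deposited SEs, which cannot show whether those SEs are right. For the chained levels, both routes to the fourth group agreed to 0.167 percentage points. Group means came from base mean and fold change, which take both groups as equally weighted. All 8 genes were named, with context genes by size of change or a called difference (up to 4 a list, base mean at least 100) and the 3 nearest genes. Members and lists were chosen with earlier results of these data known. Of the listed context genes and markers, those not mentioned as measured were not analysed here. Some context genes that the naming rule picked are not reported here by name.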

Additional observations from a re-analysis of the deposited data

Results flagged for a closer look

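CITED2 was singled out because the response to Nutlin-3a was not the same with siRFX7 as with siControl by a test of the difference itself: -0.26 ± 0.07 on the log2 scale (adjusted p 0.0287 over all genes, 0.013 to 0.0296 over the alternatives tried). It rose by 0.15 in siControl, and its -0.11 in siRFX7 did not pass (the authors' deposited tables). The cause was not tested.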

How the results depend on the processing

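Of 206 values of single genes under an alternative, 185 kept their direction and their side of the threshold, 19 no longer passed, 1 newly passed and 1 changed sign. The change of sign was BCL6 with Nutlin-3a in siRFX7, from 0.0063 to -0.0027 when the median of all genes was subtracted. The gene that newly passed was BCL6 with siRFX7 under Nutlin-3a (adjusted p 0.0412 over genes whose base mean reached 100). TXNIP was below that base mean for siRFX7 under DMSO (86.0) and for Nutlin-3a in siRFX7 (67.3) and dropped out there, which left 4 of 5 called genes under DMSO. Requiring a size of at least 0.25 on the log2 scale left 3 of 5 called genes for siRFX7 under DMSO, 2 of 4 for Nutlin-3a in siRFX7 and 4 of 6 for Nutlin-3a in siControl, where CITED2 (0.15) and BCL6 (0.22) were lost. Dividing each statistic by the robust SD of all statistics of its comparison, from 2.23 to 2.49 in the 4 deposited tables, left 0 of 5 called genes for siRFX7 under DMSO (0 at an unadjusted p under 0.05), 1 of 2 for siRFX7 under Nutlin-3a (TXNIP), 2 of 6 for Nutlin-3a in siControl (TXNIP and ARRDC4) and 1 of 4 for Nutlin-3a in siRFX7 (IRS1). The cause was not tested. The call of 1 gene, CITED2, for the difference of the responses was kept in every alternative run. For this difference, dividing by the robust SD lowered the adjusted p of CITED2 from 0.0287 to 0.013, so that setting could not remove the call. The difference of the siRFX7 effects comes from the same 4 groups and is nearly the same contrast. Neither is separate support for the call. No paired analysis was possible because the tables hold no value of a single library, and leaving out replicates was not run for the same reason. Depth limits TXNIP and ARRDC4 most, whose base means were lowest.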
